A study of Mus musculus with 6 samples.

Results

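The genes described here are 10 heat shock protein genes, Hspa1a, Hspa1b, Hspa8, Hsp90aa1, Hsp90ab1, Hsph1, Dnajb1, Hspb1, Hspd1 and Hspe1, taken by gene symbol from a table of 53797 genes. All 10 symbols were found, each in a single row. The table compares MLO-Y4 cells, a mouse cell line with features of osteocytes, after low-intensity pulsed ultrasound (LIPUS) with untreated cells of the same line. The 3 LIPUS samples received 20 min of stimulation at 1.5 MHz and 30 mW/cm2 in pulsed-wave mode, and the 3 Control samples received none. RNA was extracted 30 min after the stimulation ended. According to the methods, treated and untreated wells shared 6-well plates, in which 3 transducers were unplugged. The study describes a Control sample that stood apart from the others of its group. How far that sample moves a pooled Control value, and whether ultrasound reached the Control wells, was not tested here. No temperature reading of the wells was analysed here.

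Heat shock proteins are chaperones, which bind other proteins while these fold, assemble or recover from damage. Many of their genes are switched on by the transcription factor Hsf1 when cells are warmed or when unfolded proteins build up by other means, and the inducible Hsp70 genes are the classical transcripts by which a heat response is read. Other family members, such as Hspa8 and Hsp90ab1, are made in large amounts at normal temperature, so that a response to heat is seen mainly in the inducible members.

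Each group is represented by a single FPKM per gene (fragments per kilobase of exon, scaled to the mapped reads of the library), in which the authors merged the samples. The ratios below therefore have no replicate check of their own, and the authors' test results, which the same table holds, were not used. The pooled values carry no SD or interval, no p-value was computed from them, the table gives no read counts behind the values, and every difference below describes a pair of pooled values and not the spread between cultures. FPKM is a level per transcript length, so that levels of different genes can be set side by side. Ratios are given as LIPUS over Control, and a ratio of at least 1.5-fold in either direction is used as a mark of size. Of the 11777 genes that reached 1 FPKM in either group and were above 0 in both, 8.41% were at least 1.5-fold higher in LIPUS and 8.91% at least 1.5-fold lower, with a median log2 ratio of -0.0014. Low genes scattered most. Past 1.5-fold in either direction were 31.1% of the 4765 genes with a higher value of 1 to under 10 FPKM and 7.92% of the 7012 genes that reached 10 FPKM.

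Of 9 osteocyte-related markers, the gap junction gene Gja1 was at 176 FPKM in Control and 170 FPKM in LIPUS, Pdpn at 295 and 402 FPKM, and Cd44 at 200.2 and 212 FPKM. Dmp1 was at 3.04 and 7.65 FPKM, Phex at 0 and 0.190 FPKM, and Bglap at 0 and 1.58 FPKM. The mature osteocyte markers Sost, Mepe and Fgf23 were listed at 0 in both groups.

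The heat shock element, the site that Hsf1 binds, is built of alternating units GAA and TTC. The sequences below show where such letters lie at the starts of genes past 1.5-fold (Hspb1 and Dnajb1), of an inducible gene that was low in both groups (Hspa1b), and of genes with a run of at least 3 units (Hspe1 and Hsph1). They come from RefSeq promoter windows on GRCm38.p6, which reach from 250 bases before a start to 50 bases after it, and are written in the direction of transcription. Capitals mark the letters GAANNTTC or TTCNNGAA, which match both strands alike, and overlapping matches run together. The sequences of Hspb1 and Hspa1b are the 250 bases before the start, that of Dnajb1 leaves out the bases that lie in an exon of the neighbouring gene Tecr, and those of Hspe1 and Hsph1 are stretches of 30 bases, of which the first for Hsph1 lies after its start. A match describes the letters and not a bound site. Only exact units with 2 bases between them were searched, so a missing match does not show that a site is absent.
Hspb1, chr5:135887669-135887918, plus strand: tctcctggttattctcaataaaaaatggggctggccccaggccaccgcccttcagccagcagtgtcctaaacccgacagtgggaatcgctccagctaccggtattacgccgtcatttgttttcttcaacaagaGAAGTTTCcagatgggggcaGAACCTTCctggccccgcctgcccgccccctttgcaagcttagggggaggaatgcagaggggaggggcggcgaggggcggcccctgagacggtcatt
Dnajb1, chr8:83607972-83608174, plus strand: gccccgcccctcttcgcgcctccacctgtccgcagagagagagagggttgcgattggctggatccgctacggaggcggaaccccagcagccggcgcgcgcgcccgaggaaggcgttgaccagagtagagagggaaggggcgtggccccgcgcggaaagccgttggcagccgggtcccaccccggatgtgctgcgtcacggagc
Hspa1b, chr17:34959239-34959488, minus strand: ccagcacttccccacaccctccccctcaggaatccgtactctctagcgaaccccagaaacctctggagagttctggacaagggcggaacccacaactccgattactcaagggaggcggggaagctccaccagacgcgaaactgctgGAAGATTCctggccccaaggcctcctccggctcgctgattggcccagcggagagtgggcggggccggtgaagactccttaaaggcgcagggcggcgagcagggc
Hspe1, chr1:55088053-55088082, plus strand: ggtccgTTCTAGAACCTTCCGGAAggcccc
Hsph1, chr5:149636279-149636308, minus strand: gctgcagaTTCTGGAAAGTTCtcctcagta
Hsph1, chr5:149636351-149636380, minus strand: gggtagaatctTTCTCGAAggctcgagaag

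A window was found for 7 of the 10 genes (Hspa1a, Hspa1b, Hsph1, Dnajb1, Hspb1, Hspd1 and Hspe1), which have 10 windows in all. A pair of units was present in a window of 6 of these genes. Counted by window and not by gene, a pair was present in 15.1% of all 32851 windows. Alternating runs of 3 units, with 2 bases between neighbours, hold overlapping pairs and were present for Hsph1, Hspd1 and Hspe1 and in 0.603% of all windows. The runs of Hspd1 and Hspe1 are the same bases read on opposite strands, and the other window of Hspd1 held no pair. Hspb1 held 2 separate pairs, and both windows of Dnajb1 held none. The windows of Hspa1a and Hspa1b were equal at 296 of 300 bases and held a single pair each, at the same place.

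The inducible Hsp70 genes were close to the lower end of the measurement in both groups. Hspa1a and Hspa1b encode the stress-inducible cytosolic Hsp70, and both are genes of a single exon on the minus strand of chromosome 17 of GRCm38, Hspa1b from 34956436 to 34959238 and Hspa1a from 34969190 to 34972156. Hspa1b was at 1.035 FPKM in Control and 0.824 FPKM in LIPUS. Hspa1a was at 0.0910 FPKM in Control and 0.154 FPKM in LIPUS, a log2 ratio of 0.76 that rests on a difference of 0.0631 FPKM. Neither gene was tested by the authors' program, which marked both NOTEST. Hspa1a did not reach the minimum of 1 FPKM, and Hspa1b reached it only through its Control value. Their transcripts share much of their sequence, so that reads can be assigned to either. The sum of both was 1.13 FPKM in Control and 0.979 FPKM in LIPUS, a log2 ratio of -0.20. Among the 1193 genes with a mean FPKM within 2-fold of that of Hspa1b, 73.1% had a log2 ratio as far from 0 as its -0.33.

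Hspa8, the constitutive cytosolic Hsp70 (chromosome 9, 40800984 to 40810087, plus strand), was the most abundant of the 10 genes. Its level was 1672 FPKM in Control and 1761 FPKM in LIPUS, at rank 35 of all genes in Control and 34 in LIPUS, and its log2 ratio was 0.07. Hspa8 exceeded the sum of Hspa1a and Hspa1b by 1485-fold in Control and by 1799-fold in LIPUS. These folds rest on a sum near 1 FPKM, so neither their exact size nor their difference between the groups is read here. Hsph1 encodes Hsp110, a relative of Hsp70 that works as its nucleotide exchange factor (chromosome 5, 149614287 to 149636376, minus strand). It was at 101 FPKM in Control and 86.2 FPKM in LIPUS, a log2 ratio of -0.23, the lowest among the 8 genes with status OK. Among 1629 genes of similar level, 12.2% had a ratio as low.

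Hsp90aa1 and Hsp90ab1, which encode the stress-inducible and the constitutive cytosolic Hsp90, had nearly the same levels in both groups. Hsp90aa1 (chromosome 12, 110690605 to 110702728, minus strand) was at 474 FPKM in Control and 481 FPKM in LIPUS, a log2 ratio of 0.02. Hsp90ab1 (chromosome 17, 45567775 to 45573271, minus strand) was at 1181 FPKM in Control and 1134 FPKM in LIPUS, a log2 ratio of -0.06. The level of Hsp90aa1 was 40.1% of that of Hsp90ab1 in Control and 42.4% in LIPUS. With FPKM rescaled to the same total in both groups, the log2 ratio of Hsp90aa1 was -0.024 in place of 0.022, so its direction depends on the scaling.

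Hspd1 and Hspe1 encode the mitochondrial chaperonin Hsp60 and its lid Hsp10, which fold proteins together in the mitochondrial matrix. They lie head to head on chromosome 1, Hspd1 on the minus strand from 55077835 to 55088243 and Hspe1 on the plus strand from 55088132 to 55091307, and the 30 bases shown for Hspe1 lie before its start and inside the Hspd1 gene. Hspd1 was at 404 FPKM in Control and 377 FPKM in LIPUS, a log2 ratio of -0.10. Hspe1 was at 241 FPKM in Control and 229 FPKM in LIPUS, a log2 ratio of -0.07. The level of Hspd1 was 1.68 times that of Hspe1 in Control and 1.65 times in LIPUS.

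Hspb1 and Dnajb1 had the highest ratios among the 8 heat shock protein genes with status OK, both higher in LIPUS. Hspb1 (also called Hsp25) encodes a small heat shock protein that holds unfolding proteins and binds actin filaments, and lies on chromosome 5 from 135887919 to 135889563 on the plus strand. It was at 79.3 FPKM in Control and 125 FPKM in LIPUS, 1.58-fold higher in LIPUS (log2 ratio 0.66). Among 1486 genes of similar level, 1.55% had a ratio as high. Dnajb1, the inducible Hsp40 that delivers substrates to Hsp70 and starts its ATPase cycle, lies on chromosome 8 from 83608193 to 83612653 on the plus strand. It was at 21.8 FPKM in Control and 35.9 FPKM in LIPUS, 1.65-fold higher in LIPUS (log2 ratio 0.72). Among 3794 genes of similar level, 1.63% had a ratio as high. The level of Dnajb1 was 1.30% of that of Hspa8 in Control and 2.04% in LIPUS.

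**Figure D1:**
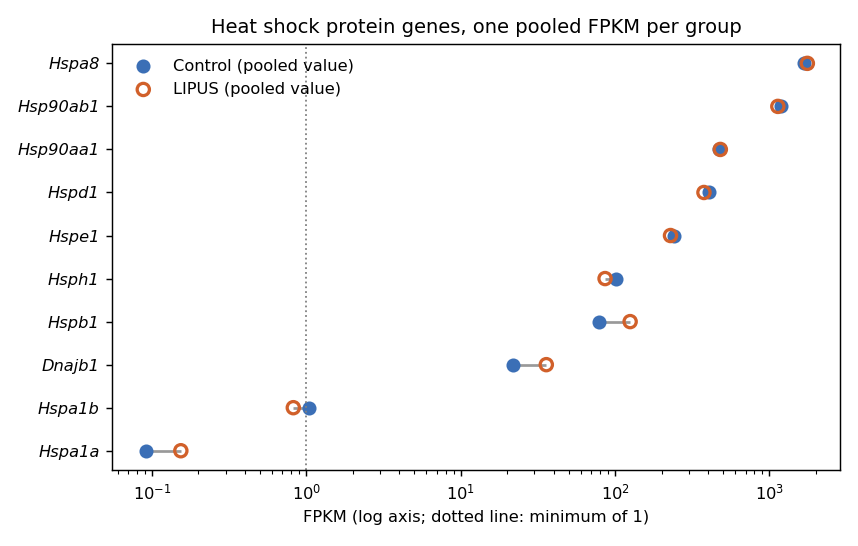
FPKM of the 10 heat shock protein genes on a log axis, with filled points for the pooled Control value and open points for the pooled LIPUS value, and a dotted line at 1 FPKM. The points of Hspb1 and Dnajb1 stand apart, with LIPUS at 125 and 35.9 FPKM against 79.3 and 21.8 FPKM in Control. At the low end, those of Hspa1a (1.69-fold higher in LIPUS) and Hspa1b (1.26-fold lower in LIPUS) also stand apart. The points of Hspa8, the Hsp90 genes, Hspd1 and Hspe1 overlap or nearly so.

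Over the 10 genes, 2 reached the minimum and were at least 1.5-fold higher in LIPUS, and 0 were at least 1.5-fold lower. The shares over all genes at the same minimum were 8.41% higher and 8.91% lower. At a minimum of 10 FPKM, chosen after the data were seen and reached by 8 of the 10 genes, Hspb1 and Dnajb1 included, the shares over all genes were 4.06% higher and 3.85% lower. The other 6 genes with status OK lay between -0.23 and 0.07 on the log2 scale, at most 1.17-fold from equality. The median log2 ratio of the 8 genes with status OK was -0.019. Summed, these 8 genes were at 4174 FPKM in Control and 4228 FPKM in LIPUS, and made up 0.698% of all FPKM in Control and 0.685% in LIPUS. The direction of their sum thus depends on the scaling. The abundant chaperones, Hspa8, Hsp90ab1, Hsp90aa1, Hspd1 and Hspe1, had values closer to each other, with Hspd1 farthest apart at 1.07-fold lower in LIPUS.

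**Figure D2:**
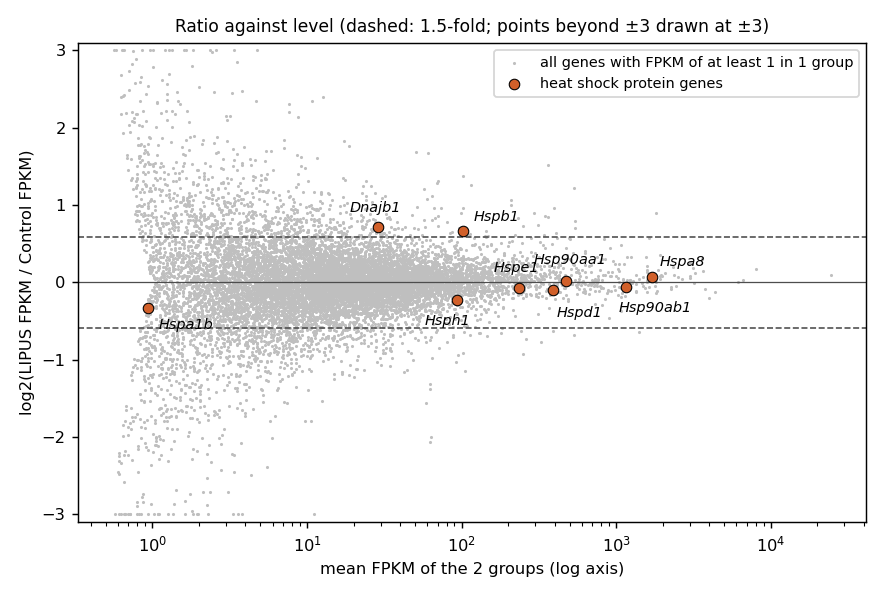
Log2 ratio of LIPUS over Control against the mean FPKM of both groups (log axis), with grey points for the 11777 genes that reached 1 FPKM and coloured points for the 9 heat shock protein genes among them. Dashed lines mark 1.5-fold, past which lie Hspb1 and Dnajb1, and the grey points spread most below 10 FPKM, where Hspa1b lies.

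Several of these genes have near-identical copies elsewhere in the genome, which bears on how their reads were shared out. The reads were 100 bases long, and in GENCODE M21 transcripts 56.5% of the 100-base stretches of Hspa8 also occur exactly in another gene. For Hspa1b the share was 49.9% and for Hspa1a 48.6%, with each other as the main partner. It was 44.0% for Hspb1, 40.7% for Hsp90aa1, 23.4% for Hspd1 and 20.4% for Hspe1. No such stretch of Hsp90ab1, Hsph1 or Dnajb1 was shared. The main partner of Hspb1, the pseudogene Hsp25-ps1, was listed at 0 in both groups. The main partner of Hspa8, Gm15459, was listed at 319 FPKM in Control and 337 FPKM in LIPUS, a log2 ratio of 0.08. With its value added, the level of Hspa8 became 1991 FPKM in Control and 2098 FPKM in LIPUS, and the log2 ratio remained 0.07. Of 10 rows named as pseudogenes of Hspd1 or Hspe1, 8 were listed at 0 in both groups, and the highest value of the others was 1.01 FPKM (Hspd1-ps4 in LIPUS).

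**Figure D3:**
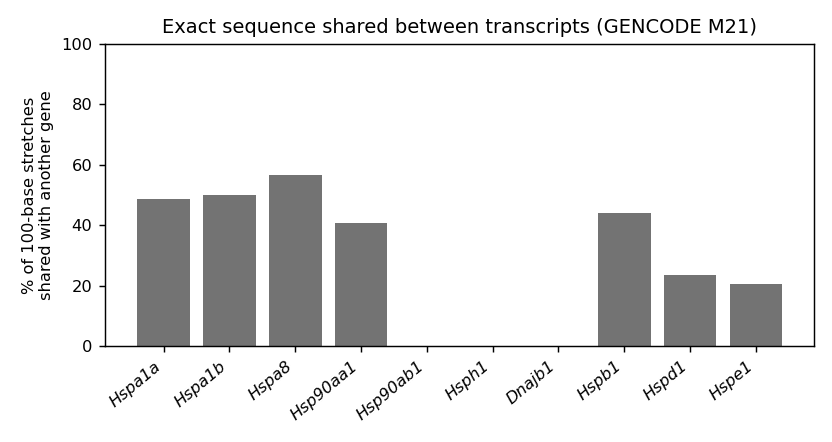
Percentage of the 100-base stretches in the protein-coding transcripts of each gene that also occur, letter for letter, in a transcript of another gene of GENCODE M21. Bars reach 56.5% for Hspa8 and 44.0% for Hspb1, and stand at 0 for Hsp90ab1, Hsph1 and Dnajb1.

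The regulators of the heat shock response were measured at similar levels in both groups. Hsf1 was at 63.5 FPKM in Control and 62.8 FPKM in LIPUS, a log2 ratio of -0.017. Hsbp1, which encodes a protein that binds Hsf1, was at 76.4 and 71.7 FPKM, Hsf2 at 8.77 and 7.43 FPKM, and Hsf4 at 7.42 and 6.74 FPKM. The 4 measured genes of this list of 6 all had ratios below 0, as had 5902 of the 11777 genes, and none passed 1.5-fold, as most genes did not. Hsf1 is activated as a protein, so its transcript level does not report its activity.

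Of the small heat shock proteins other than Hspb1, 4 of the 5 measured genes had ratios above 0, as Hspb1 had, and none was past 1.5-fold. Over all genes, 5875 of 11777 had ratios above 0, and 8.41% were past 1.5-fold higher. The list holds 9 genes, and its median log2 ratio was 0.44. Cryab, which encodes the alpha B-crystallin chaperone, was at 15.6 FPKM in Control and 22.4 FPKM in LIPUS, 1.43-fold higher. Hspb8, a partner of Bag3 in clearing misfolded proteins, was at 77.4 and 110.8 FPKM, likewise 1.43-fold higher. Hspb7 was at 82.9 and 113 FPKM (1.36-fold), and Hspb6 at 91.0 and 110.5 FPKM (1.21-fold). The exception was Hspb11, at 29.0 and 28.0 FPKM, whose protein is a part of the transport machinery of cilia in spite of its name. Hspb2, Hspb9 and Cryaa were listed at 0 in both groups, and Hspb3, below the minimum, at 0.783 FPKM in Control and 0 in LIPUS.

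Among the other DnaJ genes of classes A and B, 12 of 16 were measured and 2 were past 1.5-fold, both higher in LIPUS, against 8.41% higher over all genes. Dnajb14 was at 4.29 FPKM in Control and 7.13 FPKM in LIPUS, and Dnajb5 at 1.84 and 3.56 FPKM, levels at which many genes scattered this far. Dnajb4, a close relative of Dnajb1, was at 23.5 and 33.6 FPKM, 1.43-fold higher in LIPUS. Dnaja1, a heat-inducible cytosolic partner of Hsp70 and the most abundant of the list, was at 113 FPKM in Control and 118 FPKM in LIPUS. Its relative Dnaja2, the next most abundant in Control but not in LIPUS, was at 88.4 and 79.7 FPKM. Dnajb11, of the endoplasmic reticulum, was at 82.0 and 84.1 FPKM.

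The remaining Hsp70, Hsp110 and Hsp90 genes that were measured, 8 of 11 on the list of the former and both of the latter, lay within 1.5-fold. Over all genes 8.41% were past it higher and 8.91% lower, so that most genes lay within it and lists this short are not set apart by a count of 0. Hspa5 and Hsp90b1, the chaperones of the endoplasmic reticulum BiP and Grp94, were at 513 and 716 FPKM in Control and at 585 and 736 FPKM in LIPUS. Hspa9, the mitochondrial Hsp70, was at 238 and 247 FPKM, and Hspa4, an Hsp110 relative, at 127 and 145 FPKM. Trap1, the mitochondrial Hsp90, was at 49.7 and 58.6 FPKM, and the mitochondrial protease gene Htra2 at 84.9 and 80.1 FPKM. The testis-enriched gene Hspa2, at 1.92 and 1.28 FPKM, had the lowest log2 ratio of these lists, -0.58. All 9 mitochondrial chaperones and proteases were measured and likewise none was past 1.5-fold, with a median log2 ratio of 0.00022. The 8 genes of the CCT chaperonin, which folds actin and tubulin, lay between -0.16 and 0.03, the most abundant being Cct6a at 341 FPKM in Control and 335 FPKM in LIPUS and Cct5 at 326 and 317 FPKM.

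Among 22 cochaperones of Hsp70 and Hsp90, all measured, 1 was past 1.5-fold (4.55%, against 8.41% higher over all genes) and the median log2 ratio was 0.06. That gene was Bag4, which encodes a nucleotide exchange factor of Hsp70 and was at 5.83 FPKM in Control and 13.1 FPKM in LIPUS, 2.25-fold higher. The most abundant cochaperones were St13, at 275 FPKM in Control and 244 FPKM in LIPUS, and Ppid, at 174 and 183 FPKM. Stip1, which links Hsp70 to Hsp90, was at 119.7 and 118.7 FPKM, and Ahsa1, which stimulates the Hsp90 ATPase, at 120.3 and 131 FPKM.

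The list of other heat-inducible Hsf1 targets held 14 genes, all measured, with a median log2 ratio of 0.06 and 1 gene past 1.5-fold (7.14%, near the 8.41% higher over all genes). This was Ier5, an early response gene that is also switched on by serum and other stimuli, at 41.5 FPKM in Control and 72.3 FPKM in LIPUS, 1.74-fold higher. Bag3, which is strongly inducible by heat, was at 94.3 FPKM in Control and 90.1 FPKM in LIPUS. Chordc1 was at 26.7 and 27.0 FPKM, Fkbp4 at 147 and 154 FPKM, and Hspa4l at 9.57 and 9.92 FPKM. Ubb, a ubiquitin gene that is also heat-inducible, was at 169 FPKM in Control and 139 FPKM in LIPUS. The collagen chaperone gene Serpinh1, the most abundant of the list, was at 504 and 448 FPKM. The list thus held genes on both sides of equality, and Hspb8, Cryab and Dnajb4, described above, were the next highest after Ier5.

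Transcripts that rise on cooling were read as the counterpart. Rbm3 was at 454 FPKM in Control and 442 FPKM in LIPUS, a log2 ratio of -0.04. Cirbp was at 20.98 FPKM in Control and 29.1 FPKM in LIPUS, 1.39-fold higher, a log2 ratio of 0.47. Neither passed 1.5-fold, as most genes did not. Over all genes 8.41% were past it higher and 8.91% lower, and 4.06% and 3.85% at the minimum of 10 FPKM. A list of 2 genes is therefore not set apart by a count of 0.

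**Figure D4:**
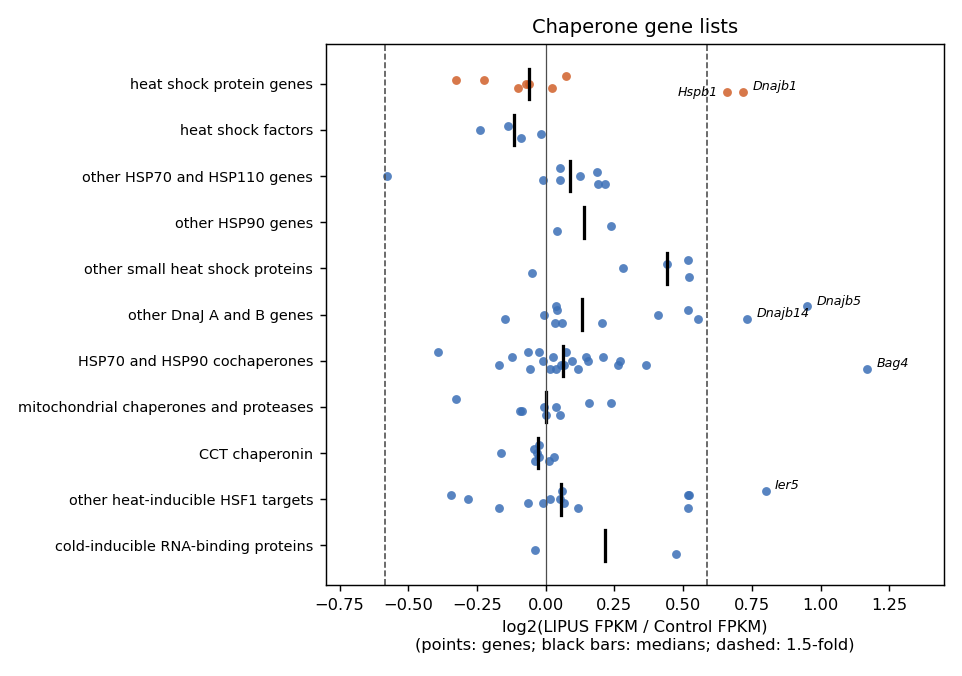
Log2 ratio of LIPUS over Control for each gene that reached 1 FPKM in either group, by list, with black bars at the list medians and dashed lines at 1.5-fold. Genes past the lines are named. The other small heat shock proteins have the highest median, 0.44, and the CCT chaperonin genes lie between -0.16 and 0.03.

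The lists besides the 10 heat shock protein genes together held 86 genes, of which 73 were measured and 8 were listed at 0 in both groups. Of the measured genes, 5.48% (4 genes) were at least 1.5-fold higher in LIPUS, and none was at least 1.5-fold lower. The shares over all genes were 8.41% higher and 8.91% lower at the same minimum, and 4.06% and 3.85% at 10 FPKM. Their median log2 ratio was 0.04. The genes in question are Bag4, Dnajb5, Dnajb14 and Ier5, of which Ier5 alone exceeded 20 FPKM in LIPUS.

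Runs of heat shock element letters were also set beside the ratio over all genes with a window. Of the 48 genes with a run of 3 units in a promoter window that passed the minimum of 1 FPKM, 4.17% (2 genes) were at least 1.5-fold higher in LIPUS and 8.33% (4 genes) lower, against 7.18% higher and 7.92% lower among the 8785 genes without such a run. At the minimum of 10 FPKM the shares were 2.70% (1 gene) and 5.41% (2 genes) of 37 genes, against 3.66% and 3.66% of 5464 genes. These counts are too small to read a difference from. Among the heat shock protein genes, Hsph1, Hspd1 and Hspe1, with runs of 3 units, had log2 ratios of -0.23, -0.10 and -0.07. Hspd1 and Hspe1 share the same run. Hspb1, with 2 pairs, had 0.66, and Dnajb1, with no match, had 0.72. With 1 pair each, Hspa1b had -0.33 and Hspa1a, below the minimum, had 0.76.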

How the data were processed

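RNA was measured in 3 LIPUS and 3 Control samples of MLO-Y4 cells, grouped by their titles. According to the methods and processing notes, the authors used Trimmomatic 0.36 for trimming and TopHat2 2.1.0 with Bowtie2 2.2.6.0 for alignment to GRCm38, and computed FPKM with Cufflinks and Ensembl transcripts. The notes give Cufflinks 2.1.1, and the methods name a later version. The deposited FPKM are 1 pooled value per group, so counts per gene and the spread between samples were not recovered from them. The methods state a read depth per sample, but library totals were not analysed here. The same table holds the authors' own fold changes, test statistics, p-values and q-values, which were not used.

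Computed here with Python 3.11.15, numpy 2.4.6 and pandas 2.3.3 were log2 ratios without a pseudocount, with a mark of 1.5-fold and a minimum of 1 FPKM in 1 group and above 0 in both. A further 222 genes at 0 in 1 group were left out. The step was run on simulated data with planted changes past the mark and little noise. That run checks the computation and not the calls in these data. Positions are from GENCODE M21, an annotation of GRCm38, by Ensembl identifier. Genes of similar level are those with a mean FPKM within 2-fold. All 10 members are named, and of each other list any gene could be named, in any case those past 1.5-fold and the 2 most abundant. The other listed genes are given by counts and medians. The members and lists were chosen with earlier results of these data known. Figures were drawn with matplotlib 3.10.9.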

Additional observations from a re-analysis of the deposited data

How the results depend on the processing

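No paired analysis was possible because the table holds 1 pooled value per group, and for the same reason no sample could be left out. Of 155 alternative values, 147 were labelled unchanged. For log2 ratios and medians, a move of over 0.1 on the log2 scale or across the 1.5-fold mark counted as a change. Counts were held unchanged if equal or, where neither was 0, within a factor of 1.5. Many of the settings could move these values only a little, so the tally does not measure the spread between samples. Hspb1 and Dnajb1 remained past 1.5-fold with pseudocounts of 0.1 and 1, after centring and after rescaling to equal totals. With a mark of 2-fold, 0 of the 10 genes were higher. With a mark just under the 1.26-fold by which Hspa1b was lower, 1 gene (Hspa1b) was lower. Shares over all genes at these other marks are not given here, so neither count is read as a result. Hspa1b also passed the minimum only through its Control value. A minimum of 10 FPKM left 0 of the other DnaJ genes past 1.5-fold. That minimum, chosen for the share over all genes after the data were seen, moved the share from 8.41% to 4.06% higher and from 8.91% to 3.85% lower. The log2 ratio of Hspa1a fell to 0.41 and 0.08 with the pseudocounts of 0.1 and 1, and that of Hspa1b became -0.16 with a pseudocount of 1. The median over the measured members was -0.06 and lay between -0.11 and -0.019 in the alternatives.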
